A study of Mus musculus with 9 samples.

Results

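The tumour necrosis factor (TNF) superfamily was examined in RNA sequencing of mouse back skin. Members were the genes of the FPKM table whose names start with Tnfsf or Tnfrsf followed by a digit, together with the members that carry other names, such as Tnf, Lta, Ltb, Cd40, Fas and Eda. This rule found 44 of 34637 genes, namely 17 ligands, 26 receptors and 1 antisense RNA, Tnfsf13os, which matched by its name and encodes no member of the family. Cd70, the ligand of Cd27, has no entry in the FPKM table and had 0 counts in all 9 libraries, which allows up to 3 counts in each. TNF ligands are made mostly as trimers on the cell surface, from which proteases can release them, and each binds 1 or several receptors with cysteine-rich extracellular repeats. Some receptors with a death domain can start apoptosis, many receptors lead through TRAF adaptors to NF-κB and MAP kinase signalling, and a few are decoys. In skin the family is known for inflammation (TNF), T cell co-stimulation (OX40, CD30, 4-1BB) and hair follicle formation (EDA and EDAR).

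All animals were male C57BL/6 mice of 6 to 8 weeks at the start, with no genetic change named. The shaved back of every mouse was sensitized with 1% DNCB (2,4-dinitrochlorobenzene, a contact sensitizer) on day 1 and painted with 0.5% DNCB 9 times between days 4 and 21, so both groups carried the atopic dermatitis-like lesion and no unpainted skin was compared here. The FJDHF group received the herbal formula FJDHF (Fangji Dihuang formulation) by mouth each day after day 7 until day 28, and the Model group received the same amount of water. The paper names its medium-dose group as the one sequenced. The comparison asks which genes differed in lesional skin with the formula. Libraries carry codes, and the 5 codes starting with MR were taken as FJDHF and the 4 starting with MXL as Model, from the number of each and because the letters MX can abbreviate the pinyin (moxing) of model. No code was matched to a single mouse, and every direction below rests on this reading. It is not stated whether codes with several numbers, such as MR3_4 or MXL12, stand for pooled mice, so n counts libraries and p values measure only the spread between libraries.

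Total counts were even, from 74648669 to 79474215 per library. CPM is the count scaled to library size with TMM factors, and FPKM, which also divides by gene length, was used to say which of several genes had the higher level. Both are levels. Values per library are in the order MR1, MR3, MR3_4, MR4_5, MR5 and then MXL1, MXL12, MXL3_4, MXL_3. Markers of keratinocytes, fibroblasts, sebaceous gland and hair follicle were all present. The summed level of 6 differentiated keratinocyte markers was 6686 to 13410 CPM in the MR and 2570 to 7828 CPM in the MXL libraries. Of these 6, 4 were higher in MR at an unadjusted p under 0.05, beside 161 of the 20817 tested genes. MXL12 stood apart in neutrophil markers, with a sum over 8 genes of 526 CPM against 26.0 to 149 CPM in the other 8 libraries. S100a9 had the most counts of these genes in MXL12 (19372). MXL12 was the highest library for each of them except Ngp, with 233 counts against 1482 in MXL_3. All 6 fibroblast markers were fitted lower in MR (median log2 fold change -0.42, 1 at an unadjusted p under 0.05). The 5 sebaceous gland and the 4 bone and osteoclast markers were also all fitted lower (0 at that p). Of 8 dendritic and Langerhans cell markers, 7 were fitted lower and 1 higher (median -0.20, 1 lower at that p). Over all genes 0.759% were lower in MR at that p. All 8 macrophage and monocyte markers were fitted higher (median 0.16, 0 at that p). Skeletal muscle markers ranged from 419 to 11750 CPM and also differed within groups. The parts of tissue composition in the values below were not tested, and in bulk RNA fewer cells of a type and less RNA per cell cannot be told apart.

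Receptors were more abundant than ligands in this skin. The median of the mean FPKM was 2.12 over the 26 receptors (0.155 to 40.95) and 0.454 over the 17 ligands (0.0417 to 3.51). A mean above 5 FPKM was reached by 9 receptors and by 0 ligands. Tnfrsf1a, which encodes the death domain receptor TNFR1 found on nearly all cells, was the most abundant member at 40.95 FPKM. It was followed by Tnfrsf19 (TROY, a receptor of hair follicle and other epithelial progenitors) at 14.1, Tnfrsf1b (TNFR2) at 10.8, Ltbr (the lymphotoxin-beta receptor) at 10.3 and Tnfrsf11b (osteoprotegerin) at 7.43 FPKM. Tnfrsf1a was the highest member in every library, while Tnfrsf19 ranged from 9.60 to 17.6 FPKM. The places below it were not separate, since Tnfrsf1b ranged from 5.88 to 15.5 FPKM and Ltbr from 2.14 to 25.3 FPKM. Among ligands the highest were Tnfsf10 (TRAIL, a death ligand) at 3.51, Tnfsf12 (TWEAK, a ligand of tissue repair) at 2.78 and Eda (ectodysplasin) at 2.37 FPKM. Their ranges of 2.88 to 4.46, 1.38 to 5.25 and 1.74 to 2.98 FPKM overlapped. The place of Tnfsf12 is uncertain, because a readthrough transcript shares 48.3% of its exonic length.

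**Figure D1:**
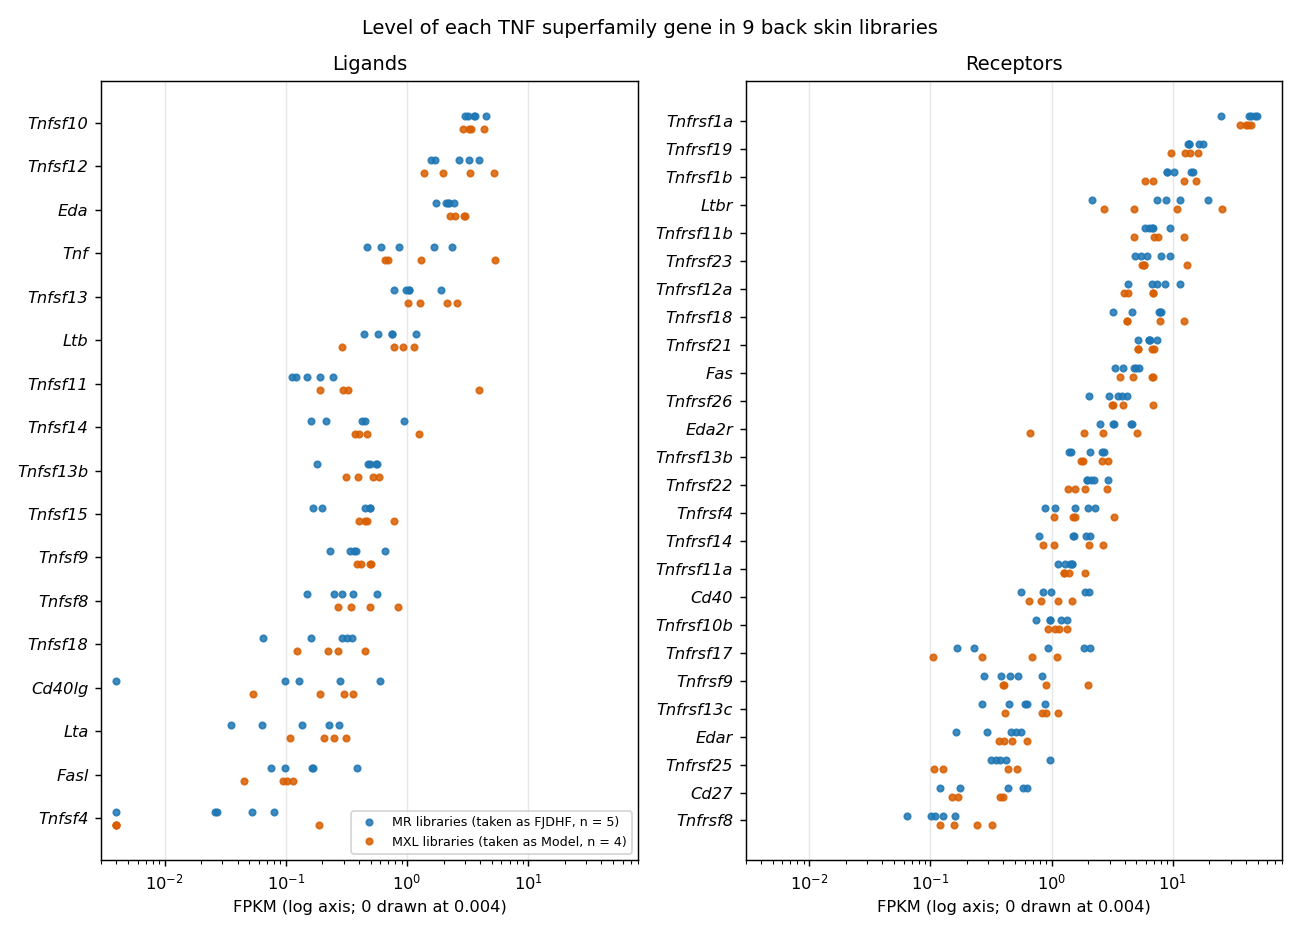
Level of the 17 ligands and 26 receptors in FPKM on a log axis, with 1 point per library (blue, 5 MR libraries; orange, 4 MXL libraries) and genes ordered by mean level. Receptors reach a mean of 40.95 FPKM (Tnfrsf1a) and ligands 3.51 FPKM (Tnfsf10), and the points of the 2 groups overlap for every gene.

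Across 21 ligand and receptor pairs known to bind, the receptor had the higher FPKM in all 9 libraries for 10 pairs, the ligand for 3 pairs, and the order changed between libraries for 8. In these pairs the levels of Tnfsf12 and Tnfsf13 are uncertain, since a readthrough transcript shares their exons. Tnf had a mean of 1.54 FPKM against 40.95 for Tnfrsf1a, and Fasl, the death ligand of cytotoxic T cells, had 0.138 FPKM against 4.90 for Fas. The 3 pairs with the ligand above its receptor in every library were Eda with Edar (2.37 against 0.429 FPKM), Tnfsf10 with its death receptor Tnfrsf10b (3.51 against 1.08 FPKM) and Tnfsf8 with Tnfrsf8, the CD30 ligand and CD30 (0.396 against 0.155 FPKM). Eda was also close to its other receptor, Eda2r, whose FPKM was higher in 7 of 9 libraries. For Tnfsf11 and its signalling receptor Tnfrsf11a the receptor was higher in 8 of 9 libraries, and the library with the ligand higher was MXL12.

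**Figure D2:**
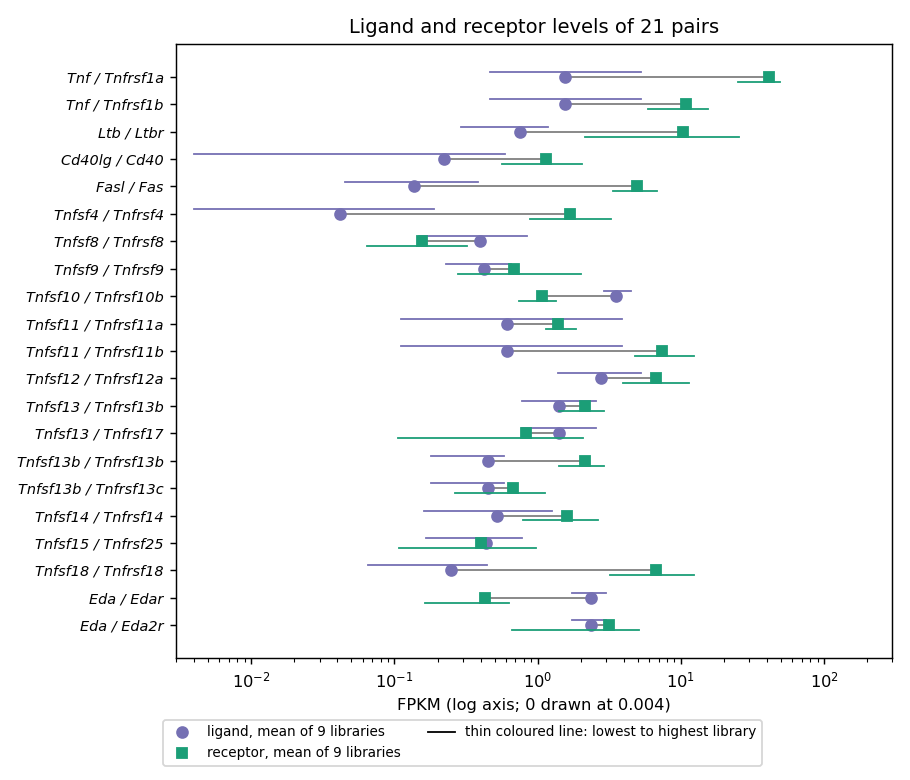
Mean FPKM over 9 libraries of the ligand (purple circle) and the receptor (green square) of 21 pairs on a log axis, with thin lines from the lowest to the highest library. The receptor lies to the right for most pairs, and Eda / Edar, Tnfsf10 / Tnfrsf10b and Tnfsf8 / Tnfrsf8 are the pairs with the ligand higher in all 9 libraries.

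No member differed between the groups at an adjusted p under 0.05 with a fold change of at least 2 (edgeR's quasi-likelihood test, Benjamini-Hochberg adjusted over 20817 genes, 43 of the 44 members tested), and no gene of the whole table did (0 of 20817, 0.0%). The adjusted p was 1.00 for every member. DESeq2's Wald test called 12 genes of the table and 0 members, with Tnfsf11 given no p by its outlier filter. At an unadjusted edgeR p under 0.05 there was 1 member, Tnfsf11, against 1.53% of all tested genes (319). It was lower in MR, as were 0.759% of all genes at this threshold, and without MXL12 there were 0 members, against 1.72% of all genes. Further, a two-sided exact permutation test over the 9 libraries gave p under 0.05 for 2 members, Tnfsf11 and Eda, against 1.93%. In CPM the MR and MXL libraries overlapped for all 43 members, whereas 0.514% of all genes did not overlap. A fold change of 2 or more was fitted for 1 member, against 3.98% of all genes. Among 43 members a single gene is a larger share than either background at these p thresholds, so nothing about the family was read from counts of 1 or 2.

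The median log2 fold change (MR over MXL, a difference) of the tested members was -0.17, with 14 higher and 29 lower in MR, beside a median of -0.03 with 9186 higher and 11631 lower over all genes. Among ligands 2 were higher and 14 lower, with a median of -0.29, and among receptors 11 were higher and 15 lower, with a median of -0.12. Without MXL12 these medians were 0.0019 for all members, -0.20 for ligands and 0.018 for receptors, so the offset of the receptors and of the whole family was lost with 1 library. MXL12 was the highest library for 13 of the 43 members (30.2%) and for 14.5% of all tested genes. The fitted difference turned its sign without MXL12 for 8 members, against 22.2% of all genes.

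**Figure D3:**
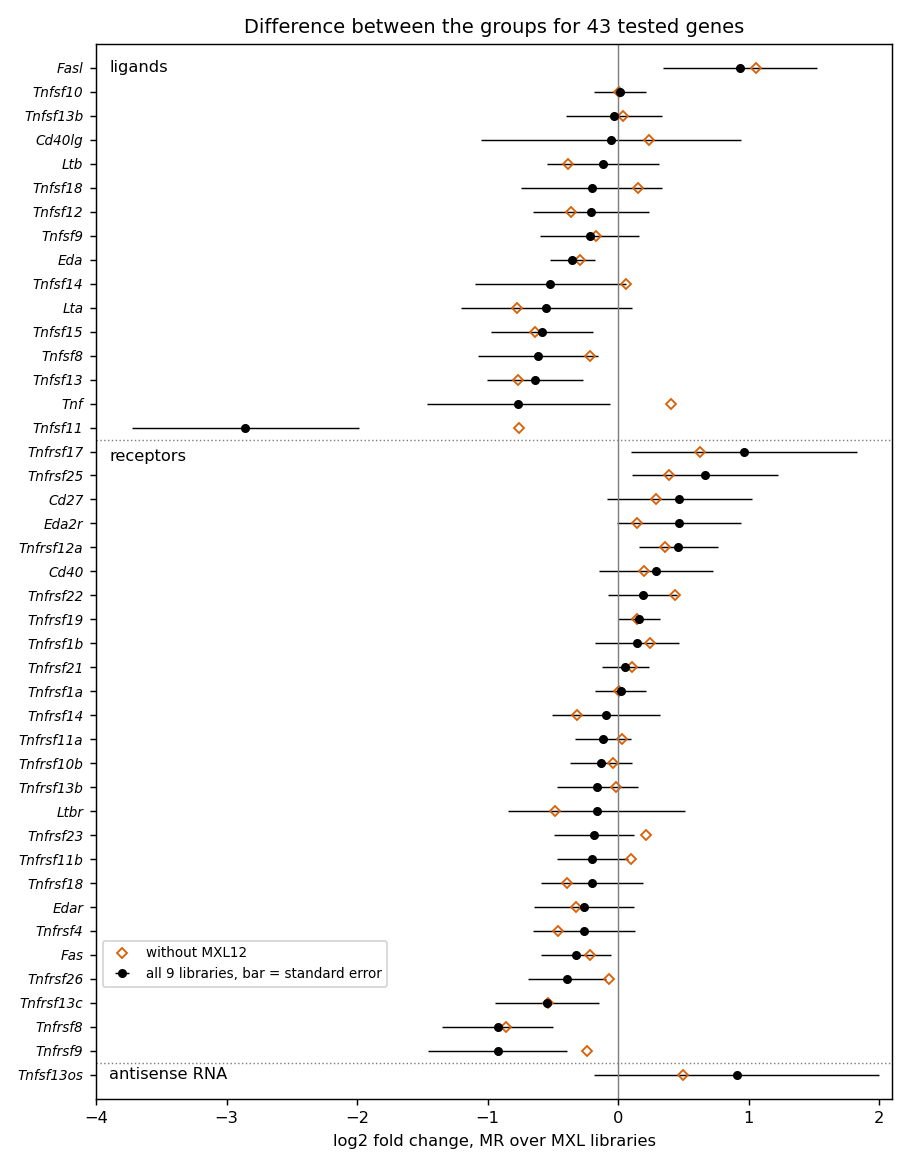
Fitted log2 fold change of MR over MXL libraries for the 43 tested genes (black, all 9 libraries, bar = standard error; orange diamond, without MXL12), in the order ligands, receptors and antisense RNA. Tnfsf11 lies farthest from 0 at -2.86 and moves to -0.76 without MXL12, and Tnf moves from -0.76 to 0.40.

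Tnf, the main inflammatory cytokine of the family, is encoded on chromosome 17 (35199381 to 35202007, GRCm38, minus strand) between Ltb and Lta. It was at 0.810, 1.42, 2.99, 3.89 and 1.03 CPM in the MR libraries and at 2.19, 9.18, 1.16 and 1.26 CPM in the MXL libraries. MXL12 was the highest library, at 2.36 times the next, and MR3_4 and MR4_5 lay above the remaining MXL libraries. Tnf had 61, 114, 217, 309 and 81 counts in the MR libraries and 173, 694, 90 and 91 counts in the MXL libraries. The log2 fold change of Tnf was -0.76 ± 0.70 (with its standard error, as below) over all libraries and 0.40 without MXL12, and the exact permutation test gave p = 0.603, so no direction could be given.

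The neighbours of Tnf code for the lymphotoxins, which form the ligands of Ltbr and act in lymphoid tissue. Lta was low, with 26, 4, 31, 8 and 16 counts in the MR libraries and 24, 12, 29 and 35 counts in the MXL libraries, and MR3 and MR4_5 were the lowest libraries. Ltb was at 1.91, 1.16, 0.964, 1.17 and 0.688 CPM in the MR libraries and at 1.80, 0.490, 1.26 and 1.56 CPM in the MXL libraries, lowest in MXL12 and highest in MR1. The log2 fold changes were -0.55 ± 0.65 for Lta and -0.12 ± 0.43 for Ltb. The 3 genes of this 10.9 kb cluster therefore had different highest libraries (MXL_3 for Lta, MXL12 for Tnf and MR1 for Ltb).

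The receptors of TNF varied less. Tnfrsf1a was at 120.2, 129, 120.4, 125 and 66.5 CPM in the MR libraries and at 117, 109, 99.1 and 119 CPM in the MXL libraries, with MR5 well below the other 8 libraries. Tnfrsf1b, found mainly on immune and endothelial cells, was at 57.1, 39.7, 61.03, 34.6 and 35.2 CPM in the MR libraries and at 26.6, 49.5, 24.1 and 65.02 CPM in the MXL libraries, and both groups held high and low libraries. Log2 fold changes were 0.02 ± 0.19 and 0.14 ± 0.32.

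Tnfsf11 encodes RANKL, the cytokine that drives osteoclast formation and that keratinocytes and activated T cells also make. Its gene lies on chromosome 14 (78277445 to 78308043, minus strand). It had 44, 35, 20, 27 and 22 counts in the MR libraries and 54, 695, 36 and 58 counts in the MXL libraries. It was at 0.584, 0.437, 0.276, 0.340 and 0.280 CPM in the MR libraries and at 0.683, 9.20, 0.464 and 0.802 CPM in the MXL libraries. MXL12 held 11.5 times the level of the next library, and the other 8 libraries lay between 0.276 and 0.802 CPM. Apart from MXL12 the groups still overlapped, since MXL3_4 was below MR1. The log2 fold change was -2.86 ± 0.87 (unadjusted p = 0.0079, adjusted p = 1.00 by edgeR) and -0.76 without MXL12, where the unadjusted edgeR p was no longer under 0.05. The two-sided exact permutation test gave p = 0.0159 (adjusted p = 1.00), with 0.0079 as the smallest value that 4 against 5 libraries allow, and lower levels in MR than in MXL on average.

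Tnfrsf11a, which encodes RANK, the receptor of RANKL, was at 9.41, 6.93, 9.75, 7.86 and 8.65 CPM in the MR libraries and at 7.83, 11.8, 8.18 and 9.07 CPM in the MXL libraries. Tnfrsf11b, which encodes osteoprotegerin, the soluble decoy that binds RANKL, was at 17.5, 18.1, 20.7, 19.6 and 27.4 CPM in the MR libraries and at 13.8, 36.8, 22.6 and 21.7 CPM in the MXL libraries. Both were highest in MXL12, and their log2 fold changes were -0.11 ± 0.22 and -0.20 ± 0.27. Within each library the log2 ratio of (Tnfsf11 + 0.5) to (Tnfrsf11b + 0.5) CPM was -4.06, -4.31, -4.78, -4.58 and -5.16 in the MR libraries and -3.60, -1.94, -4.59 and -4.09 in the MXL libraries. This ratio is compared between libraries only. In FPKM the decoy was above the ligand in 9 of 9 libraries. The pair was chosen with an earlier value of Tnfsf11 known, so the p values of this ratio are no evidence separate from Tnfsf11 itself. The mean ratio was lower by 1.02 in MR (difference -1.02, two-sided exact permutation p = 0.0794), which did not pass 0.05. With a pseudocount of 0.1 it was -1.43 (exact permutation p = 0.0476), and without MXL12 -0.49 (exact permutation p = 0.196).

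Tnfrsf9, the co-stimulatory receptor 4-1BB of activated T cells, was the third tested member with MXL12 at 2 times the next library or more. It was at 1.54, 1.07, 1.38, 0.768 and 2.38 CPM in the MR libraries and at 1.13, 5.79, 1.19 and 2.74 CPM in the MXL libraries, with MXL12 at 2.12 times MXL_3. The log2 fold change was -0.92 ± 0.53 and -0.24 without MXL12. Among all genes 0.836% had MXL12 this far above the next library. The T cell marker sum was 32.3 CPM in MXL12 and 18.1 to 49.7 CPM in the others, while the regulatory T cell marker sum was highest in MXL12, at 26.5 CPM against 14.2 to 24.3 CPM. Of single markers, Cd3g (958 counts against 225 to 749) and Ctla4 (211 counts against 42 to 141) had their highest raw counts there. The other markers of both lists did not. Foxp3 was nearly level at the top, with 178 raw counts in MXL12, 179 in MR5 and 174 in MR1, so its order depends on scaling. Il2ra had 512 counts in MXL12 (range 233 to 534). Lck had 123 counts in MXL12 in a range of 109 to 586 over all libraries. Cd8a had 101 (range 73 to 348), Cd4 406 (range 322 to 985) and Ikzf2 1101 (range 754 to 1350). The part of the T cell and neutrophil markers in these 3 genes was not tested. Of the 8 neutrophil genes, 8 were lower in MR, with a median log2 fold change of -1.17 and 0.25 without MXL12. At an unadjusted p under 0.05 there was 1, beside 0.759% of all genes lower in MR. For 1 gene, Mmp8, the groups did not overlap, beside 0.514% of all genes. It had 141 to 328 counts in the MR and 382 to 781 counts in the MXL libraries. Ly6g was at 0 counts in MR3 and MXL1.

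**Figure D4:**
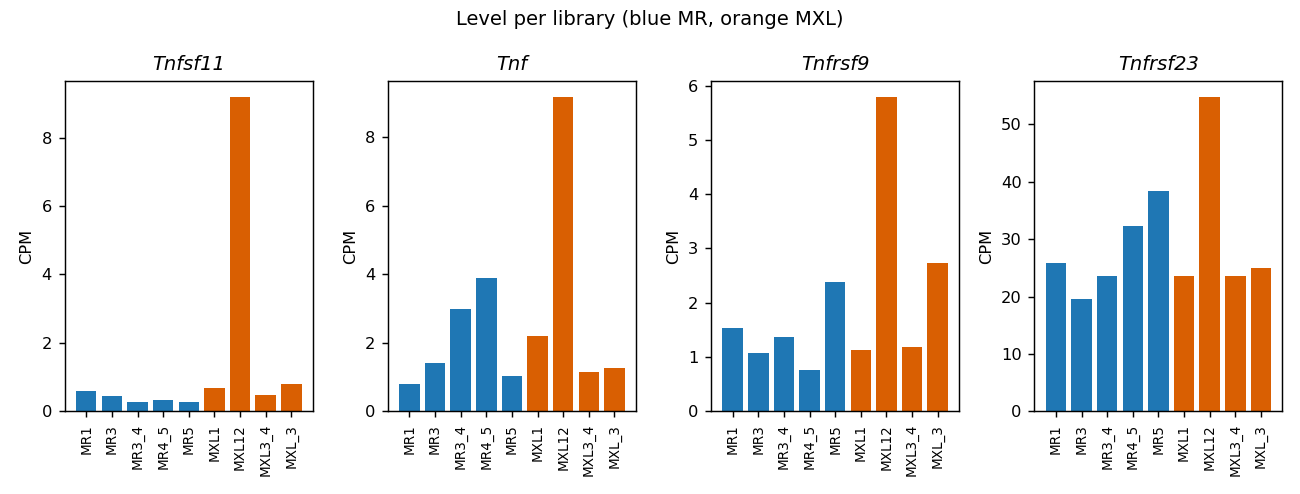
CPM of Tnfsf11, Tnf, Tnfrsf9 and Tnfrsf23 in each library (blue bars, MR; orange bars, MXL), each axis starting at 0. MXL12 is the highest bar in all 4 panels, at 9.20 CPM for Tnfsf11 and 9.18 CPM for Tnf.

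The sequences before the starts of Tnf, Tnfsf11 and Tnfrsf9, the tested members with MXL12 at 2 times the next library or more, are shown so that they can be read for short motifs known from inducible promoters. Each is 250 bases long and runs 5′ to 3′ up to the RefSeq transcript start (GRCm38.p6). Capitals mark GGGNNNNNCC, a loose form of the NF-κB site, and TATAAA, on either strand, with overlapping matches joined. The Tnf promoter (chr17:35202008-35202257, minus strand) held a match at -194 to -185 and a TATAAA at -29 to -24. The Tnfsf11 promoter (chr14:78308044-78308293, minus strand) held matches at -238 to -229 and -155 to -146 and a TATAAA on the other strand at -32 to -27. Of the 2 RefSeq starts of Tnfrsf9, the first (chr4:150919905-150920154, plus strand) held none and the second (chr4:150927749-150927998, plus strand) held overlapping matches from -43 to -33.
Tnf: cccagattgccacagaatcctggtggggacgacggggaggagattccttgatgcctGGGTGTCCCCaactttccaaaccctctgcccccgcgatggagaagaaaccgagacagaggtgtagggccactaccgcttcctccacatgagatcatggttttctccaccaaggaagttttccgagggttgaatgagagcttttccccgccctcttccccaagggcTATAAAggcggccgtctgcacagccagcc
Tnfsf11: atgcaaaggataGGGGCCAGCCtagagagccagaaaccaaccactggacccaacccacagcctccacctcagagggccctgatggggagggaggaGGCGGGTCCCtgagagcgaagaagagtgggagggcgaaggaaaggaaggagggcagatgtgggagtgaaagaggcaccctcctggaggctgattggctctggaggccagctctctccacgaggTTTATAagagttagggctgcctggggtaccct
Tnfrsf9, first start: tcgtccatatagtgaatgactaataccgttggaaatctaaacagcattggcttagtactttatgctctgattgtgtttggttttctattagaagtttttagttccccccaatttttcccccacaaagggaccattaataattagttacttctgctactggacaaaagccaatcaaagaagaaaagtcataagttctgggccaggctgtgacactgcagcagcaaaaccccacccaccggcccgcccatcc
Tnfrsf9, second start: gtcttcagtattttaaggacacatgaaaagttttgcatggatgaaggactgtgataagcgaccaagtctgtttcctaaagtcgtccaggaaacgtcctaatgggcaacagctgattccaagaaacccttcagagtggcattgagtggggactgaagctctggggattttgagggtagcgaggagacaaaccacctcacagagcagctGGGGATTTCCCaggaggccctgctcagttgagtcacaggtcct
Of the 44 members, 34 had a promoter in the RefSeq table. GGGNNNNNCC was found in 24 of these 34 (70.6%), beside 48.7% of 27025 genes. TGANTCA, the AP-1 form, was found in 6 (17.6%, beside 7.82%) and TATAAA in 7 (20.6%, beside 14.3%). The median GC content of these windows was 56.0% for members and 52.4% for all genes, and the part of GC content in these shares was not tested. A match describes letters and not a bound site.

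The ectodysplasin axis forms hair follicles and other skin appendages. Eda, on the X chromosome, was at 17.7, 15.2, 13.1, 14.5 and 15.7 CPM in the MR libraries and at 17.3, 21.6, 21.7 and 17.1 CPM in the MXL libraries. MXL12 and MXL3_4 were the highest libraries, and MR1 lay above MXL1 and MXL_3, so the groups overlapped. The log2 fold change was -0.35 ± 0.17 and stayed between -0.41 and -0.29 with any 1 library left out. The edgeR test gave an unadjusted p = 0.068, and the two-sided exact permutation test p = 0.0317 (adjusted p = 1.00). Mean levels were 15.2 ± 1.69 CPM in the MR and 19.4 ± 2.58 CPM in the MXL libraries (SD, n = 5 and 4).

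Its receptors were more variable. Edar, which signals in hair placodes, was at 1.97, 2.06, 1.85, 1.08 and 0.612 CPM in the MR libraries and at 2.37, 1.57, 1.86 and 1.47 CPM in the MXL libraries, and Eda2r, the receptor of another Eda isoform, was at 15.8, 27.4, 21.2, 19.4 and 27.5 CPM in the MR libraries and at 16.1, 4.12, 11.6 and 32.8 CPM in the MXL libraries. MR5 was lowest for Edar and MXL12 for Eda2r. The log2 fold changes were -0.26 ± 0.38 and 0.46 ± 0.47, the latter 0.14 without MXL12. Tnfrsf19 had 5178, 6291, 5097, 6718 and 5040 counts in the MR libraries and 6231, 4791, 5463 and 3615 counts in the MXL libraries, with a log2 fold change of 0.16 ± 0.16. The hair follicle marker sum ranged from 1033 to 6918 CPM in the MR and from 1697 to 4204 CPM in the MXL libraries.

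Death ligands and their receptors showed no common direction. Fasl was at 0.796, 0.150, 0.358, 0.202 and 0.331 CPM in the MR libraries and at 0.101, 0.238, 0.206 and 0.221 CPM in the MXL libraries, with MR1 the highest library and all 4 MXL libraries at or below 0.238 CPM. Its log2 fold change was 0.93 ± 0.59, and 0.43 without MR1. Fas was at 10.6, 7.00, 11.2, 8.08 and 11.2 CPM in the MR libraries and at 7.73, 14.7, 10.3 and 15.5 CPM in the MXL libraries, highest in MXL_3 and MXL12, with a log2 fold change of -0.32 ± 0.27. Tnfsf10 was steady at 19.9, 16.1, 20.96, 16.96 and 24.1 CPM in the MR libraries and at 15.6, 18.9, 18.2 and 24.9 CPM in the MXL libraries, and its highest and lowest libraries differed 1.60-fold. The log2 fold change of Tnfsf10 was 0.01 ± 0.20. Tnfrsf10b, the death receptor for TRAIL in the mouse, was at 4.32, 5.38, 5.80, 6.67 and 7.54 CPM in the MR libraries and at 6.39, 7.75, 5.48 and 6.46 CPM in the MXL libraries, with a log2 fold change of -0.13 ± 0.24.

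Mice have a receptor cluster on chromosome 7 (143607659 to 143685872) that holds Tnfrsf26 and the decoy TRAIL receptors Tnfrsf22 and Tnfrsf23. Tnfrsf23 was at 25.9, 19.6, 23.5, 32.3 and 38.4 CPM in the MR libraries and at 23.6, 54.8, 23.5 and 25.1 CPM in the MXL libraries, and MXL12 was high. Tnfrsf22 was at 8.73, 9.12, 9.08, 9.53 and 12.6 CPM in the MR libraries and at 5.92, 12.8, 7.05 and 8.74 CPM in the MXL libraries, and MXL12 and MR5 were the 2 highest libraries. Tnfrsf26 was at 6.66 to 13.9 CPM in the MR and 11.1 to 23.3 CPM in the MXL libraries, also highest in MXL12 and next in MR5. The log2 fold changes were -0.18 ± 0.30, 0.19 ± 0.26 and -0.39 ± 0.30, and without MXL12 0.22, 0.44 and -0.07. Exons of Tnfrsf23 and Tnfrsf26 overlap an antisense RNA over 4.14% and 3.33% of their length, so a small part of their reads could belong to either strand.

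Tnfsf12 (TWEAK) was at 6.32, 4.11, 5.43, 2.43 and 2.67 CPM in the MR libraries and at 5.15, 3.20, 2.26 and 8.74 CPM in the MXL libraries, and MXL_3 was the highest. Its receptor Tnfrsf12a (Fn14), which rises in injured tissue, was at 13.9, 22.3, 15.7, 16.9 and 8.43 CPM in the MR libraries and at 13.5, 8.77, 8.19 and 14.5 CPM in the MXL libraries, highest in MR3. Their log2 fold changes were -0.21 ± 0.44 and 0.46 ± 0.30. Tnfsf12 lies beside Tnfsf13 on chromosome 11, where a readthrough transcript shares 48.3% of the exonic length of Tnfsf12 and 60.0% of that of Tnfsf13, and the antisense RNA Tnfsf13os overlaps 13.5% of Tnfsf13. How reads were divided between them is not stated, so the levels of these 3 genes are uncertain. Tnfsf13os had 23, 21, 20, 16 and 26 counts in the MR libraries and 34, 0, 0 and 11 counts in the MXL libraries, with MXL12 and MXL3_4 at 0.

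The B cell ligands and receptors were low to moderate. Tnfsf13 (APRIL) was at 1.37 to 3.19 CPM in the MR and 1.81 to 4.61 CPM in the MXL libraries, with a log2 fold change of -0.64 ± 0.37. Tnfsf13b (BAFF, the survival factor of B cells) was at 4.14, 3.32, 4.16, 1.28 and 3.52 CPM in the MR libraries and at 2.82, 3.84, 2.35 and 4.43 CPM in the MXL libraries, and MR4_5 was far below the rest. Tnfrsf13c (the BAFF receptor) was at 0.584, 1.84, 1.36, 1.32 and 0.956 CPM in the MR libraries and at 1.89, 1.80, 2.48 and 0.927 CPM in the MXL libraries, lowest in MR1. The log2 fold changes of Tnfsf13b and Tnfrsf13c were -0.03 ± 0.37 and -0.55 ± 0.40. Tnfrsf13b (TACI) was at 4.05 to 8.16 CPM in the MR and 5.26 to 8.75 CPM in the MXL libraries and Tnfrsf17 (BCMA, a plasma cell receptor) at 0.140 to 1.86 CPM in the MR and 0.0926 to 0.923 CPM in the MXL libraries, a 20.1-fold spread over the libraries. The B and plasma cell marker sum ranged from 9.71 to 41.4 CPM in MR and from 17.2 to 78.1 CPM in MXL libraries, and its part in these values was not tested.

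Cd40lg, the helper T cell ligand of CD40, had 60, 0, 13, 10 and 29 counts in the MR libraries and 6, 36, 20 and 30 counts in the MXL libraries, and MR3 had 0. Cd40, its receptor on antigen-presenting cells, was at 6.82, 3.44, 7.59, 2.95 and 1.99 CPM in the MR libraries and at 4.01, 2.98, 2.40 and 5.53 CPM in the MXL libraries, highest in MR3_4 and MR1. The log2 fold changes were -0.06 ± 1.00 and 0.29 ± 0.44. Tnfsf4 (OX40L, a ligand linked to type 2 responses) had 0, 8, 4, 4 and 12 counts in the MR libraries and 0, 28, 0 and 0 counts in the MXL libraries. Tnfsf4 was thus too low to be tested, with no count in MR1, MXL1, MXL3_4 and MXL_3 and its highest count in MXL12, where 28 counts stood against 12 in the next library. Its receptor Tnfrsf4 (OX40) was at 1.57, 2.77, 1.34, 3.19 and 2.20 CPM in the MR libraries and at 4.57, 1.51, 2.28 and 2.28 CPM in the MXL libraries, highest in MXL1, with a log2 fold change of -0.27 ± 0.39.

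Tnfrsf8 (CD30, a receptor of activated T cells) was at 0.597, 0.362, 0.413, 0.453 and 0.229 CPM in the MR libraries and at 0.569, 0.886, 0.451 and 1.22 CPM in the MXL libraries. MXL_3 and MXL12 were the highest libraries, and MXL1 and MXL3_4 lay within the MR range. The log2 fold change was -0.92 ± 0.42, with an unadjusted edgeR p = 0.054 and a two-sided exact permutation p = 0.0635, and it lay between -1.11 and -0.63 with any 1 library left out. Its ligand Tnfsf8 was at 0.587 to 2.37 CPM in the MR and 1.06 to 3.43 CPM in the MXL libraries, with a log2 fold change of -0.61 ± 0.46. The T cell marker sum was 18.1 to 49.7 CPM in MR and 23.3 to 35.6 CPM in MXL libraries.

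Tnfsf15 (TL1A, made by endothelial and myeloid cells) was at 1.03, 2.91, 1.27, 2.96 and 2.70 CPM in the MR libraries and at 2.69, 2.88, 4.88 and 2.59 CPM in the MXL libraries, highest in MXL3_4 and lowest in MR1 and MR3_4. Its receptor Tnfrsf25 (DR3) was at 0.863, 2.27, 1.05, 0.907 and 0.764 CPM in the MR libraries and at 1.05, 0.265, 0.322 and 1.31 CPM in the MXL libraries, highest in MR3 and lowest in MXL12. The log2 fold changes were -0.58 ± 0.39 and 0.67 ± 0.56. The remaining members were Tnfsf9, Tnfsf14, Tnfsf18, Cd27, Tnfrsf14, Tnfrsf18 and Tnfrsf21, ligands and receptors mostly of T cell co-stimulation. Their log2 fold changes lay between -0.52 and 0.47 with standard errors of 0.18 to 0.58, and their groups overlapped. Exons of Tnfrsf18 (GITR) overlap an antisense RNA over 27.2% of their length.

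The libraries differed in base composition, and 4 of the 43 members (9.3%) correlated with this beyond 0.8 in either direction, beside 20.6% of all tested genes, so this was not particular to the family. For each library a GC contrast was computed as the median log2 deviation of the tenth of genes with the highest transcript GC content (57.3% or more) minus that of the tenth with the lowest (41.9% or less). It was 0.22, 0.71, 0.18, -0.0059 and -0.84 in the MR and 0.91, -0.84, -0.43 and 0.13 in the MXL libraries, so both groups held libraries at either end. Ltbr, the receptor of the lymphotoxins, has a transcript GC content of 59.6% and was at 28.5, 46.5, 22.6, 17.6 and 5.18 CPM in the MR libraries and at 61.2, 6.80, 12.2 and 27.8 CPM in the MXL libraries. Its level followed the contrast with r = 0.989 and rho = 0.983 over 9 libraries, and r = 0.982 without MR5 and MXL12. Its lowest and highest libraries differed 11.8-fold, more than for any other member with a mean above 5 FPKM. Tnfrsf11b, at 42.9% GC, went the other way, with r = -0.908 and rho = -0.917, and -0.848 without the same libraries. These correlations describe points that share their libraries with the contrast. With the contrast as a covariate, an alternative chosen after the data were seen, Ltbr had a log2 fold change of -0.22 with a standard error of 0.13, in place of -0.17 ± 0.68. Eda (-0.33, unadjusted p = 0.039), Tnfsf11 (-1.995, unadjusted p = 0.045) and Tnfsf13 (-0.68, unadjusted p = 0.048) then passed an unadjusted edgeR p of 0.05, and no member passed after adjustment.

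**Figure D5:**
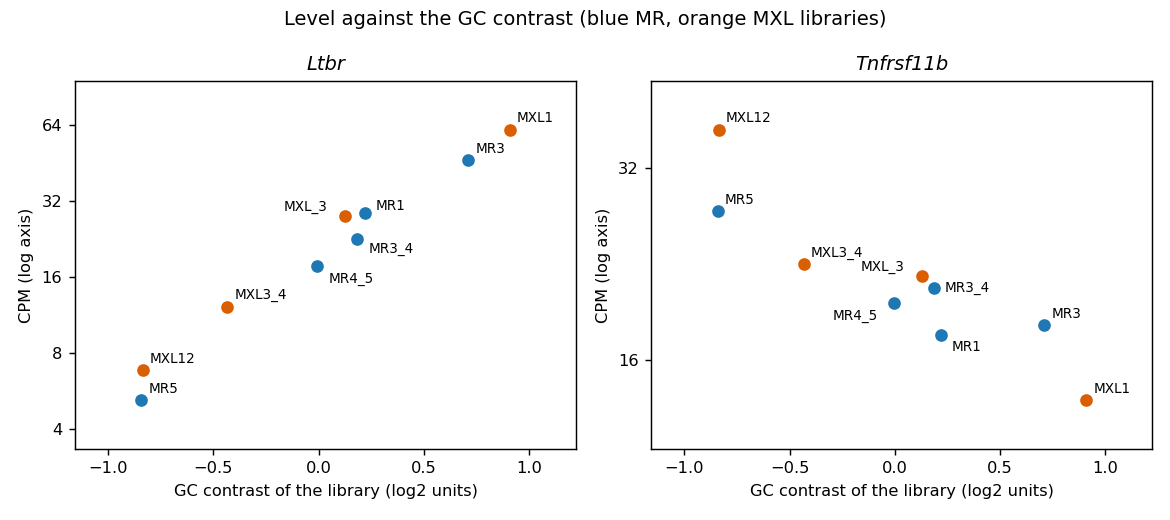
CPM on a log axis of Ltbr and Tnfrsf11b against the GC contrast of each library in log2 units (blue, MR; orange, MXL). Ltbr rises along the contrast from 5.18 CPM (MR5) to 61.2 CPM (MXL1), Tnfrsf11b falls, and both groups spread along the whole axis.

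Genes that act below or beside the receptors were read from lists of known pathway genes. The share of all tested genes at an unadjusted edgeR p under 0.05 was 1.53%. Of 25 TRAF adaptors and receptor-proximal genes, 0 had an unadjusted edgeR p under 0.05, with 14 higher and 11 lower in MR. The most abundant were Tab2, Map3k7, Cflar and Tank, with log2 fold changes of 0.04, -0.04, -0.18 and -0.05. Cflar, the inhibitor of caspase-8 at death receptors, was at 92.1 ± 5.24 CPM (SD, n = 5) in the MR and 104.6 ± 6.28 CPM (SD, n = 4) in the MXL libraries, with an exact permutation p = 0.0238 (adjusted p = 1.00). Of 8 genes listed for ligand and receptor shedding, not all of them proteases, 0 had an unadjusted p under 0.05. They include Adam10 and Adam17, the protease that releases TNF. Adam17 was at 110.5 ± 9.13 CPM (SD, n = 5) and 110.9 ± 23.1 CPM (SD, n = 4). Of 7 relatives by sequence or name, 2 were fitted higher and 5 lower in MR, and 1 had an unadjusted p under 0.05 (beside 1.53% of all genes), namely C1qtnf7, which encodes a secreted C1q and TNF related protein. C1qtnf7 was at 17.8 ± 2.97 CPM (SD, n = 5) and 31.2 ± 9.26 CPM (SD, n = 4) without overlap, with a log2 fold change of -0.81 ± 0.23 and -0.62 without MXL12. Its exact permutation p was 0.0079, the smallest that 4 against 5 libraries allow, with an adjusted p of 1.00.

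Of 22 genes known to respond to TNF, 0 had an unadjusted edgeR p under 0.05, beside 1.53% of all genes. In MR 5 were higher and 17 lower, with a median log2 fold change of -0.19, or 0.11 without MXL12. The interleukin gene Il1b was, like Tnf, highest in MXL12 and next in MR4_5. Il1b had 432, 264, 597, 3988 and 1106 counts in the MR and 176, 49835, 279 and 430 counts in the MXL libraries, so its place among the 4 genes of highest mean CPM rests on MXL12. Of the other 3, Tnfaip6, which encodes a hyaluronan-binding protein, was also highest in MXL12, with 5931 counts against 1153 to 2941, and had a log2 fold change of -0.20, or 0.45 without MXL12. Sod2 and Tnfaip2 had log2 fold changes of -0.25 and -0.33. Of 9 genes listed as EDAR targets or hair placode genes, 7 were tested and 0 had an unadjusted p under 0.05, with 6 higher and 1 lower in MR. The list is mixed, so these directions are no measure of EDAR signalling. Lef1, Nfkbia, Bmp2 and Bmp4 had log2 fold changes of 0.31, 0.13, 0.10 and -0.17, and Dkk4 and Fgf20 were too low to be tested.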

How the data were processed

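Back skin RNA of 9 libraries was sequenced in pairs of reads from strand-specific libraries. For 55401 genes the authors deposited raw counts, and for 34637 genes FPKM values, scaled to gene length and depth. The submitters' processing notes name HISAT, StringTie, DESeq2 and the build mm10, without version or role. Whether strand was used in counting is not given in the sources used here. A further 9 columns of the FPKM table, headed as counts, were not used.

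Members were joined to the counts by gene ID. Counts were tested with edgeR 4.0.16 in R 4.3.3 (filterByExpr, TMM, robust quasi-likelihood test, MR against MXL, no covariate) with Benjamini-Hochberg adjustment over 20817 genes. The filter kept 43 members and left out Tnfsf4. Of these, 38 passed it in every library, and Lta, Cd40lg, Fasl, Tnfrsf17 and Tnfsf13os in some. Single levels and the ratio used a two-sided exact permutation test on log2(CPM + 0.5), in Python 3.11.15 with scipy 1.17.1. Positions and exons are from GENCODE M21, and promoters from RefSeq (GRCm38.p6).

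Genes given in every library were the members at an unadjusted p under 0.05, members without overlap, members of the best-known axes, members with an extreme library and the 5 most abundant members. Of the pathway lists, up to 4 of the most abundant genes were named. The members and lists were chosen with earlier results of these data known. A count of 3 or fewer (0.0378 to 0.0402 CPM) was taken as the floor, for counting error alone, because PCR copies of a molecule are not independent.

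The steps were tested on simulated data for MR against MXL with 20164 genes, where 48.5% of 200 genes changed 4-fold were recovered, 3% of the calls were false, and 0 genes were called without a change. Alternatives were DESeq2's size factors, DESeq2 1.42.0's Wald test, limma 3.58.1 on log2(FPKM + 1), no filter, at least 10 counts in every library, each library left out, a replicate block, a pseudocount of 0.1, FPKM in place of CPM and ranks. A GC covariate and the fit to the 6 paired libraries without a block were added after the data were seen.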

Additional observations from a re-analysis of the deposited data

Results flagged for a closer look

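Dixon's ratio, the gap of the highest or lowest library to its neighbour over the range of its group, was computed for the 43 tested members in both groups (86 comparisons). It passed the 95% critical value for its group size in 7, while about 1 in 20, or 4.3 of 86, would pass for independent, normally distributed values. The share over all tested genes was not computed, so the 7 were not read as an excess of the family. In the MXL group, MXL12 was far above the others for Tnfrsf23 (ratio 0.926; 4142 counts against 1811 to 1864) and for Tnfsf11 (ratio 0.870; 695 counts against 36 to 58). MXL3_4 was far above for Tnfsf15 (ratio 0.834), with 378 counts against 187 to 218. In the MR group, MR5 was far below for Tnfrsf1a (ratio 0.889), with 5223 counts against 8744 to 10350, and above for Tnfrsf22 (ratio 0.763), with 988 counts against 658 to 757. MR3 was above for Tnfrsf25 (ratio 0.743), with 182 counts against 60 to 76. MR4_5 was below for Tnfsf13b (ratio 0.794), with 102 counts against 266 to 312. MR5 and MXL12 had the lowest GC contrasts, both -0.84, and the part of base composition in these values was not tested.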

How the results depend on the processing

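The count of 0 members called at an adjusted p under 0.05 held under every alternative run. The number of members at an unadjusted p under 0.05 was 1 with all libraries and 2 with DESeq2's Wald test (Eda and Tnfrsf8), 2 with at least 10 counts in every library (Tnfrsf8 and Tnfsf11), 0 with limma on FPKM and 3 with the GC covariate. Over all genes it was 319 of 20817 with all libraries and 651 of 34420 with the Wald test. It was 277 of 17485 with at least 10 counts, 387 of 20817 with limma and 480 of 20817 with the covariate. For members, leaving out 1 library gave 0 to 3, with 0 without MXL12 and 3 without MXL1. The number of members at an exact permutation p under 0.05 was 2 and ranged from 0 (without MR3, MR3_4 or MR4_5) to 3, with 1 without MR5 and 1 without MXL12. With a library left out there are fewer splits and fewer possible p values, so these counts are not directly comparable with the full test. With 1 library left out, the median log2 fold change of the members ranged from -0.24 without MR1 to 0.0019 without MXL12. TNF-responsive genes at an unadjusted p under 0.05 numbered 0 to 4 of 22 with 1 library left out (2 without MR4_5, 3 without MXL12, 3 without MXL3_4, 4 without MXL1 and 4 without MXL_3). The share of all genes at that p was 1.53% with all libraries and 1.72% without MXL12. Shares for the other libraries left out are not given here. The counts of members and of TNF-responsive genes in those fits were therefore not read as a result. Directions of these genes are not given here, so no change of TNF signalling was read from the counts. The difference in the log2 ratio of Tnfsf11 to Tnfrsf11b was -1.43 with a pseudocount of 0.1 and ranged from -1.37 without MXL3_4 (exact permutation p = 0.0357) to -0.49 without MXL12. This pair was chosen with an earlier value of Tnfsf11 known. Tnfsf11 was at -0.61 with limma and -0.76 without MXL12, both above an unadjusted p of 0.05. No result reversed among those that passed a threshold. The causes of these shifts were not tested.

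The numbers 1, 3 and 3_4 occur in both groups' codes, but correlations of the same-numbered libraries' deviations were 0.14, 0.09 and -0.075, so the numbers were not taken to pair them. A replicate block over these 3 pairs (6 libraries) gave 0 members at an unadjusted p under 0.05, a median of 0.044 and Tnfsf11 at -0.62. It also gave 0 relatives and 1 gene of the EDAR target and hair placode list. Without the block the same 6 libraries, an alternative chosen after the data were seen, gave 0 members, a median of 0.037 and Tnfsf11 at -0.59. They also gave 1 TNF-responsive gene and 1 gene of the EDAR target and hair placode list. At 4 against 5 libraries the simulation, with genes varying independently, recovered 48.5% of 4-fold changes, so smaller changes would often not be called in that setting.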
